A study of Mus musculus with 12 samples.

Results

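Expression of complement components that start the classical and the alternative pathway was described in mouse spleen. These genes were C1qa, C1qb, C1qc, C1ra, C1s1, C2, C3, Cfb and Cfp, 9 in all. They were picked by name, and each was read from the probe set annotated to that gene alone, or from the one with the highest mean over all arrays where a gene had several. Of the 9 genes, 8 had such a probe set, out of 22180 genes that could be read in this way. C3, the component on which all complement pathways converge, had none and was not analysed here.

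Spleen RNA was hybridized to 12 Affymetrix arrays, 1 per mouse, in 4 groups of 3 mice. The groups were LPS challenged ficolin KO mice (KO mice in what follows), LPS challenged WT mice, naive KO mice and naive WT mice. All mice were C57BL/6 females, 10 weeks old by the labels. LPS, a component of the outer membrane of Gram-negative bacteria, was given intraperitoneally at 10 mg/kg, and spleens were taken 6 h later. Naive mice were untreated. The ficolin KO mice lacked both ficolin-A and ficolin-B, and both genotypes descended from crosses of heterozygous mice. Fcna, which encodes ficolin-A, spanned log2 intensities of 3.98 to 4.85 over the 6 KO arrays and of 7.92 to 9.38 over the 6 WT arrays. Among spleen markers, Cd79a, a part of the B cell receptor, averaged 11.91 in naive KO mice and 11.98 in naive WT mice, and Tlx1, a transcription factor needed for the spleen to form, averaged 6.86 in naive KO mice and 7.08 in naive WT mice. Over all genes, which do not count as independent replicates, arrays correlated at 0.987 to 0.992 within a group and at 0.940 to 0.958 between treatments.

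Complement is a cascade of plasma proteins that tags microbes and dying cells. In the classical pathway, C1q binds its target and the attached proteases C1r and C1s are activated, which then cleave C4 and C2 to form an enzyme that splits C3. In the alternative pathway, factor B pairs with the C3b fragment to make a second C3-splitting enzyme, which properdin stabilizes. Most plasma complement is made in the liver, but C1q comes mainly from macrophages and dendritic cells, and properdin is made by myeloid cells. Ficolins start a further route, the lectin pathway, which also cleaves C4 and C2.

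LPS challenge moved these genes in different directions. Cfb rose by more than 4-fold in both genotypes, and the 3 chains of C1q and Cfp fell in both. C1ra rose in KO mice and C2 in WT mice, each by less than 2-fold, and C1s1 was too dim to follow. Differentially expressed genes (DEGs) between LPS challenged and naive mice had a fold-change over 2 and an adjusted p under 0.05. In KO mice these were Cfb, the 1 gene of the 8 that was higher, beside 4.22% of all genes, and C1qc, the 1 that was lower, beside 4.41% of all genes. In WT mice Cfb was the only DEG of the 8, beside 4.05% of all genes that were higher, and none of the 8 was among the 4.94% that were lower. Without the fold criterion, 2 of the 8 genes were higher and 4 were lower at an adjusted p under 0.05 in limma in KO mice, where 12.9% of all genes were higher and 14.9% lower. The same counts, 2 and 4, were found in WT mice, where 13.4% of all genes were higher and 16.7% lower. In each genotype 6 of the 8 genes had arrays that did not overlap between LPS challenged and naive mice, as did 39.7% of all genes in KO mice and 40.7% in WT mice. The median log2 fold-change of the 8 genes was -0.40 in KO mice and -0.37 in WT mice, and that of all genes was -0.01 in KO mice and 0.01 in WT mice.

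**Figure D1:**
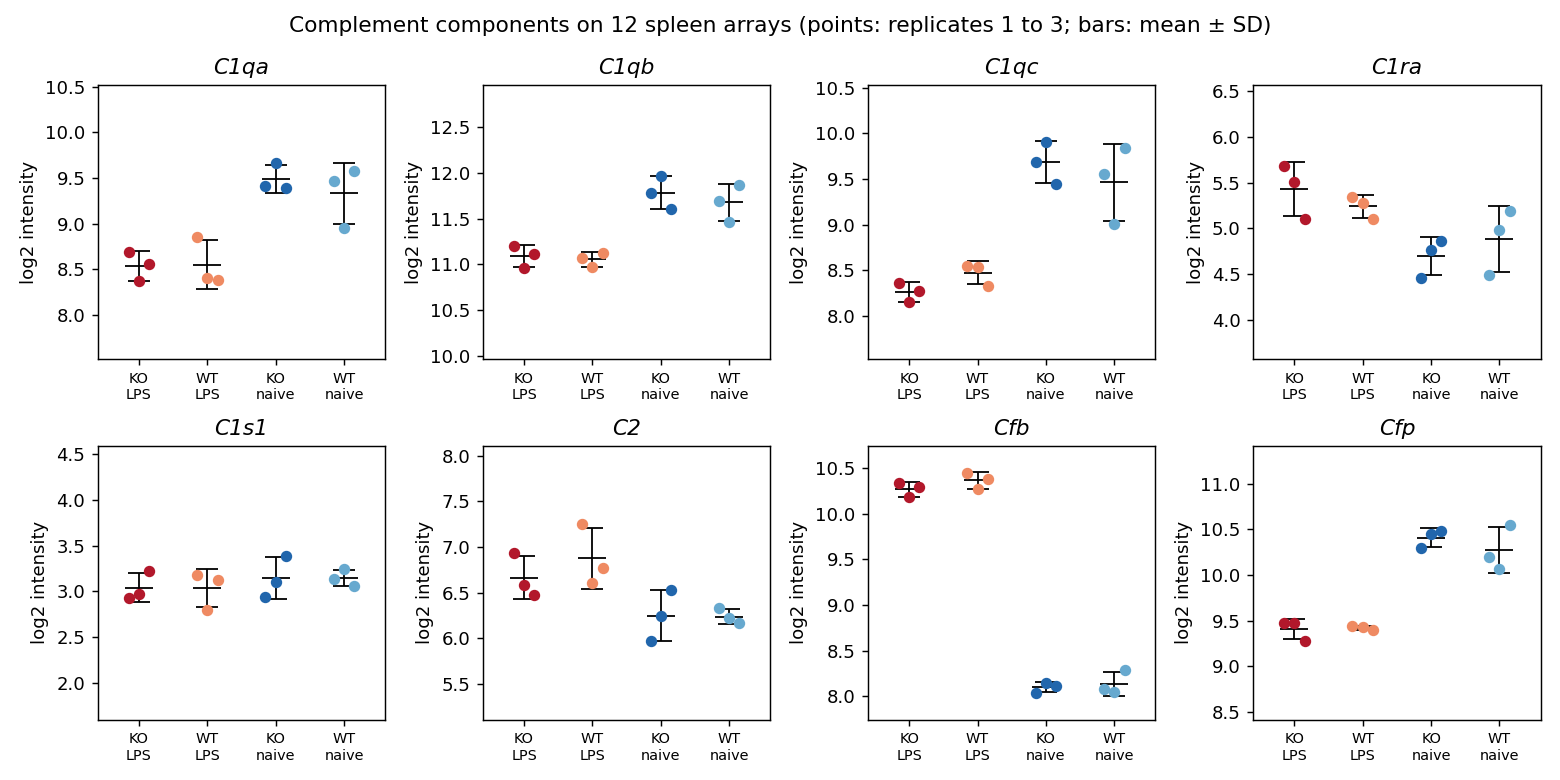
Log2 intensity of each of the 8 genes on the 12 arrays, with groups along the x axis, points for the replicates and bars for the mean and SD of 3 mice. Cfb lay between 10.18 and 10.45 after LPS challenge and between 8.04 and 8.29 in naive mice, while C1qa, C1qb, C1qc and Cfp lay lower after LPS challenge.

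C1qa, C1qb and C1qc encode the A, B and C chains that together make C1q, the recognition unit of the classical pathway. The 3 genes lie next to each other on chromosome 4 in the mouse annotation, in the order C1qb, C1qc and C1qa. RefSeq promoter stretches were available for C1qb and C1qc, and they are shown because both genes were lower after LPS challenge. They were read upstream of the annotated gene on build GRCm38.p6 and searched on both strands for GAGGAA, which holds the core of sites for the myeloid factor PU.1, and for GGGA and CC with any 4 bases between them, a form of the NF-kB site. The stretch of C1qb is chr4:136886201-136886450 on the minus strand, and that of C1qc is chr4:136892937-136893164 on the minus strand. Capitals mark the matches.
C1qb: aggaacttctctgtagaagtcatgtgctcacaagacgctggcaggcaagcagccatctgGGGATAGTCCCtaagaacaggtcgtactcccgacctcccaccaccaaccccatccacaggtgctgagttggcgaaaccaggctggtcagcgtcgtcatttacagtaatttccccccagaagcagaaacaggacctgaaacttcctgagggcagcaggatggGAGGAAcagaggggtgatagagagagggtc
C1qc: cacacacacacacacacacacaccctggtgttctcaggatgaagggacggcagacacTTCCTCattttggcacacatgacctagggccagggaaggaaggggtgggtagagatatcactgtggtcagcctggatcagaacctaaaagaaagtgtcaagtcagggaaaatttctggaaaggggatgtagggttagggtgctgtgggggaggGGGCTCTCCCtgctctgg
Each stretch held GAGGAA 1 time, read on the opposite strand in C1qc, where it appears as TTCCTC. These letters were found in 23.4% of 32536 promoters of 250 bases (the stretch of C1qc has 228), and the NF-kB form in 17.7% of them. The NF-kB form matched on both strands of 1 overlapping run in C1qb and on the opposite strand of C1qc. Neither stretch held the interferon-stimulated response element, searched as GAAA repeated after any 2 bases and found in 3.0% of promoters. Neither held the interferon-gamma activated site, searched as TTC and GAA with any 3 bases between them and found in 7.0%.

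C1qc changed most of the chains. It had log2 intensities of 8.36, 8.15 and 8.28 in LPS challenged KO mice, against 9.69, 9.91 and 9.45 in naive KO mice. In WT mice the values were 8.55, 8.54 and 8.33 after LPS challenge, against 9.55, 9.01 and 9.84 in the naive state. Every LPS challenged array was lower than every naive array, and the naive WT mouse at 9.01 came nearest. The log2 fold-change was -1.42 in KO mice (SE 0.18, fold-change 0.374, limma adjusted p = 1.95e-05) and -0.99 in WT mice (SE 0.18, fold-change 0.502, limma adjusted p = 5.09e-04). C1qc thus met the criteria in KO mice and missed the fold criterion narrowly in WT mice. It passed in WT mice when certain single arrays were left out. It was at -1.03 without replicate 1 or replicate 2 of LPS challenged WT mice and at -1.22 without replicate 2 of naive WT mice. Over the 21 other settings its value in WT mice ran from -1.22 to -0.81, and it passed in 4 of them. The responses of the genotypes differed by -0.43 (95% confidence interval -0.97 to 0.12, limma adjusted p = 0.998), so a difference in response was not shown.

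C1qa was lower as well. Its log2 intensities were 8.69, 8.37 and 8.56 in LPS challenged KO mice, against 9.41, 9.67 and 9.39 in naive KO mice. WT mice had 8.86, 8.41 and 8.39 after LPS challenge, against 9.47, 8.95 and 9.58 in the naive state. The groups did not overlap in either genotype, although the gap in WT mice was small, from 8.86 to 8.95. C1qa fell by 0.95 on the log2 scale in KO mice (SE 0.17, fold-change 0.518, limma adjusted p = 5.82e-04) and by 0.78 in WT mice (SE 0.17, fold-change 0.582, limma adjusted p = 0.00272). Without replicate 1 of LPS challenged KO mice its log2 fold-change was -1.025, past the fold criterion. This was the 1 setting of the 21 others in which it passed in KO mice, where its weakest value was -0.86.

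C1qb showed the smallest shift of the chains. It had log2 intensities of 11.20, 10.96 and 11.11 in LPS challenged KO mice, against 11.78, 11.97 and 11.61 in naive KO mice. In WT mice it had 11.07, 10.97 and 11.13 after LPS challenge, against 11.70, 11.47 and 11.87 in the naive state. All LPS challenged arrays lay below all naive arrays. The log2 fold-change was -0.70 in KO mice (SE 0.13, fold-change 0.617, limma adjusted p = 7.95e-04) and -0.62 in WT mice (SE 0.13, fold-change 0.649, limma adjusted p = 0.00186). The probe sets of the chains differ in brightness, so their levels were not compared with each other.

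The chains also shared their order among the mice of a group. Within LPS challenged KO mice, replicate 1 was highest and replicate 2 lowest for all 3 chains. Replicate 2 was highest and replicate 3 lowest in naive KO mice, and replicate 3 was highest and replicate 2 lowest in naive WT mice, again for all 3 chains. LPS challenged WT mice were the exception, since replicate 1 was highest for C1qa and C1qc and replicate 3 for C1qb. Other genes shared parts of this order, since replicate 1 of LPS challenged KO mice was also highest for Cfb, C2 and C1ra and tied for highest for Cfp, and replicate 3 was highest and replicate 2 lowest in naive WT mice for Cfb and Cfp as well. All genes were read from the same RNA of each mouse, so the order is a description and is not particular to C1q.

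Markers of the macrophages of the red pulp, the part of the spleen that filters blood, moved in the same direction as C1q. Of 12 such genes, 10 were lower DEGs in KO mice, beside 4.41% of all genes, and 8 in WT mice, beside 4.94%. The median log2 fold-changes of the 12 markers were -1.34 in KO mice and -1.51 in WT mice. Vcam1, an adhesion molecule, had log2 fold-changes of -1.30 in KO mice and -1.52 in WT mice, and Adgre1, which encodes a surface antigen of macrophages, had -1.38 in KO mice and -0.72 in WT mice. Hmox1, which degrades heme, had -1.12 in KO mice and -1.13 in WT mice. Spic, a transcription factor that red pulp macrophages need, went the other way, with 0.41 in KO mice (limma adjusted p = 0.0206) and 0.55 in WT mice (limma adjusted p = 0.00269). The mean log2 intensity of the 12 markers ranged from 7.70 to 7.94 in LPS challenged KO mice, from 7.76 to 7.96 in LPS challenged WT mice, from 9.26 to 9.45 in naive KO mice and from 9.28 to 9.60 in naive WT mice. The mean of the C1q chains ranged from 9.16 to 9.42 in LPS challenged KO mice, from 9.28 to 9.49 in LPS challenged WT mice, from 10.15 to 10.52 in naive KO mice and from 9.81 to 10.43 in naive WT mice. Within groups the orders of the mice differed. The mouse with the lowest C1q mean had the highest marker mean in both naive groups, replicate 3 in KO mice (10.15 for C1q and 9.45 for the markers) and replicate 2 in WT mice (9.81 for C1q and 9.60 for the markers). In both LPS challenged groups replicate 1 was highest for both means, but the lowest mouse was not the same. In whole spleen, fewer cells of a type and less RNA per cell cannot be told apart, and the part of the markers in the C1q result was not tested.

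Markers of other cell types moved in both directions, and DEGs among them were named once their values were known. Of all genes, 4.22% were higher and 4.41% lower DEGs in KO mice, and 4.05% were higher and 4.94% lower in WT mice. Among 5 markers of marginal zone and metallophilic macrophages, Cd209b and Cd5l were lower DEGs in each genotype. Marco, a scavenger receptor, was a higher DEG in WT mice at 1.31 on the log2 scale, against 0.70 in KO mice, and a difference between these responses was not shown (limma adjusted p = 0.998). Of 6 monocyte markers, Ccr2 was lower and Vcan higher in each genotype. Of 7 dendritic cell markers, Ccr7 was higher and Xcr1 lower in each genotype, and 1 more was lower in each, Siglech in KO mice and Flt3 in WT mice. Among 12 neutrophil markers, Cxcr2 was lower in KO mice and none passed in WT mice. The B cell markers Cd79a, Cd79b and Ms4a1 were lower in each genotype, 3 of 5 measured. All 6 T cell markers were lower DEGs in KO mice and 4 of them in WT mice. Of 10 stromal markers, Tcf21 and Tlx1 were lower in each genotype, besides Col1a1 in KO mice and Col1a2 in WT mice. Of 7 endothelial markers, Kdr, Stab2 and Tek were lower in each genotype, besides Plvap in WT mice, and Cdh5 was higher in KO mice. Marker means of the stroma ranged from 6.59 to 6.92 in LPS challenged KO mice, from 6.74 to 6.79 in LPS challenged WT mice, from 7.62 to 7.87 in naive KO mice and from 7.53 to 7.86 in naive WT mice. The part of these cell types in the complement results was not tested.

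**Figure D2:**
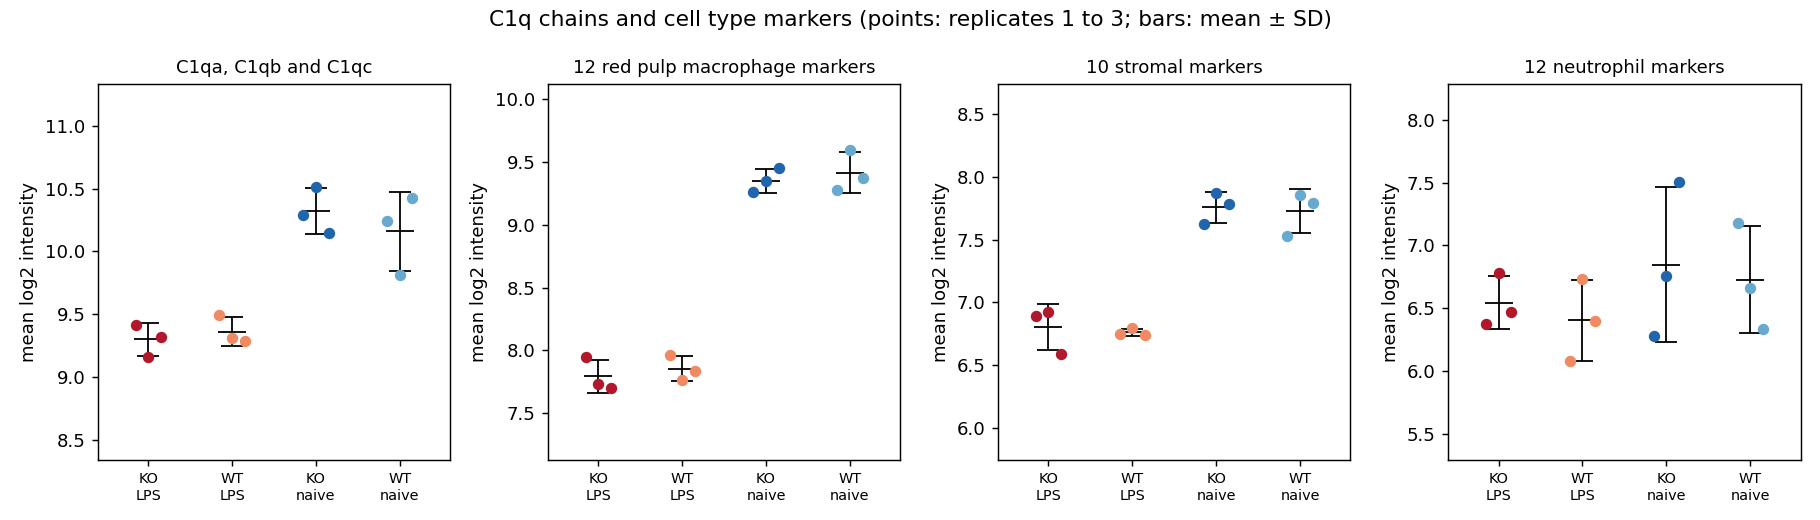
Mean log2 intensity of the C1q chains and of markers of red pulp macrophages, stroma and neutrophils on each array, with points for the replicates and bars for the mean and SD of 3 mice. The C1q mean, the red pulp marker mean and the stromal marker mean were lower on all LPS challenged arrays than on all naive arrays. The neutrophil means overlapped.

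C1ra encodes C1r, the protease that is activated first when C1q has bound. It had log2 intensities of 5.68, 5.51 and 5.10 in LPS challenged KO mice, against 4.46, 4.76 and 4.86 in naive KO mice. WT mice had 5.34, 5.28 and 5.10 after LPS challenge, against 4.49, 4.98 and 5.19 in the naive state. The arrays were separate in KO mice and overlapped in WT mice. C1ra rose by 0.74 on the log2 scale in KO mice (SE 0.18, fold-change 1.67, limma adjusted p = 0.00663). In WT mice the log2 fold-change was 0.35 (95% confidence interval -0.04 to 0.75, limma adjusted p = 0.178). A difference between these responses was not shown (0.38, 95% confidence interval -0.17 to 0.94, limma adjusted p = 0.998). C1ra was dim, at 0.19 to 1.51 above the median of its array on the log2 scale.

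C1s1 encodes C1s, the protease that C1r cleaves and that in turn cleaves C4 and C2. Its log2 intensities were 2.93, 2.97 and 3.22 in LPS challenged KO mice, against 2.94, 3.10 and 3.39 in naive KO mice. In WT mice they were 3.18, 2.80 and 3.13 after LPS challenge, against 3.14, 3.24 and 3.06 in the naive state. The groups overlapped, and C1s1 lay below the array median on all 12 arrays. The log2 fold-change was -0.10 in KO mice (limma adjusted p = 0.676) and -0.11 in WT mice (limma adjusted p = 0.630). A shift of C1s1 would be hard to see at this signal.

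C2 encodes the protein that C1s cleaves to complete the C3-splitting enzyme of the classical and lectin pathways. It had log2 intensities of 6.93, 6.58 and 6.48 in LPS challenged KO mice, against 5.97, 6.25 and 6.53 in naive KO mice. In WT mice the values were 7.25, 6.61 and 6.77 after LPS challenge, against 6.33, 6.22 and 6.17 in the naive state. The arrays were separate in WT mice, whereas in KO mice the lowest LPS challenged array, 6.48, was just under the highest naive one, 6.53. C2 rose by 0.64 on the log2 scale in WT mice (SE 0.18, fold-change 1.55, limma adjusted p = 0.0130). In KO mice the log2 fold-change was 0.41 (SE 0.18, fold-change 1.33, limma adjusted p = 0.106). Single arrays decided both, since without replicate 1 of LPS challenged WT mice the value was 0.45 (limma adjusted p = 0.0737), and without replicate 3 of naive KO mice it was 0.55 (limma adjusted p = 0.0447). The responses differed by -0.22 (95% confidence interval -0.76 to 0.32, limma adjusted p = 0.998).

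Cfb encodes factor B, the protease precursor of the alternative pathway, and had the largest change of the 8 genes. It had log2 intensities of 10.34, 10.18 and 10.29 in LPS challenged KO mice, against 8.04, 8.15 and 8.11 in naive KO mice. In WT mice it had 10.45, 10.27 and 10.38 after LPS challenge, against 8.08, 8.05 and 8.29 in the naive state. The mice of each group lay close together and far from those of the other treatment. The log2 fold-change was 2.17 in KO mice (SE 0.11, fold-change 4.50, limma adjusted p = 2.59e-09) and 2.23 in WT mice (SE 0.11, fold-change 4.68, limma adjusted p = 1.64e-09). Cfb was thus number 171 among the rises of 22180 genes in KO mice and number 166 in WT mice. The difference between the responses was -0.06 (95% confidence interval -0.39 to 0.28). Cfb and C2 are direct neighbours on chromosome 17 in the mouse annotation and their proteins are related, yet the log2 fold-changes of C2 were 0.41 in KO mice and 0.64 in WT mice.

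The genes with the pattern most like that of Cfb over the 12 arrays were looked up by the root mean square difference in log2 intensity, after each gene was centred on its own mean. These were Pfkfb3, a regulator of glycolysis, at 0.116, Mmp14, a membrane-bound matrix protease, at 0.118, and Bcat1, which breaks down branched-chain amino acids, at 0.122. Since they were picked by likeness to Cfb on these same arrays, fold-changes close to those of Cfb follow from the choice. Pfkfb3 had log2 fold-changes of 2.21 in KO mice and 2.17 in WT mice. Mmp14 had 2.12 in KO mice and 2.26 in WT mice, and Bcat1 had 2.13 in KO mice and 2.09 in WT mice.

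Cfp encodes properdin, the stabilizer of the alternative pathway enzyme, and moved against Cfb. Its log2 intensities were 9.47, 9.47 and 9.28 in LPS challenged KO mice, against 10.29, 10.45 and 10.48 in naive KO mice. In WT mice they were 9.44, 9.43 and 9.40 after LPS challenge, against 10.20, 10.06 and 10.55 in the naive state. Every LPS challenged array was lower than every naive array. Cfp fell by 1 on the log2 scale in KO mice (SE 0.13, fold-change 0.5, limma adjusted p = 2.50e-05) and by 0.85 in WT mice (SE 0.13, fold-change 0.556, limma adjusted p = 1.15e-04). At a fold-change of exactly 0.5 it was not over the fold criterion in KO mice. It passed without replicate 1 or replicate 2 of LPS challenged KO mice (-1.03 each) or without replicate 1 of naive KO mice (-1.06). These were 3 of 21 other settings, and its weakest value in KO mice was -0.94. The RefSeq stretch upstream of Cfp, chrX:20931556-20931805 on the minus strand of GRCm38.p6, is shown beside those of C1qb and C1qc because Cfp was lower in the same mice.
Cfp: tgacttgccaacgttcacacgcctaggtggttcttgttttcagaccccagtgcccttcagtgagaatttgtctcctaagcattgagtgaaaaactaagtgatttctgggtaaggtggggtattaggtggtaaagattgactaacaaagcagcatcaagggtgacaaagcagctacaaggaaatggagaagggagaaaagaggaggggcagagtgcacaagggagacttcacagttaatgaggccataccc
None of the 4 motifs searched was found in it, so it has no capitals.

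**Figure D3:**
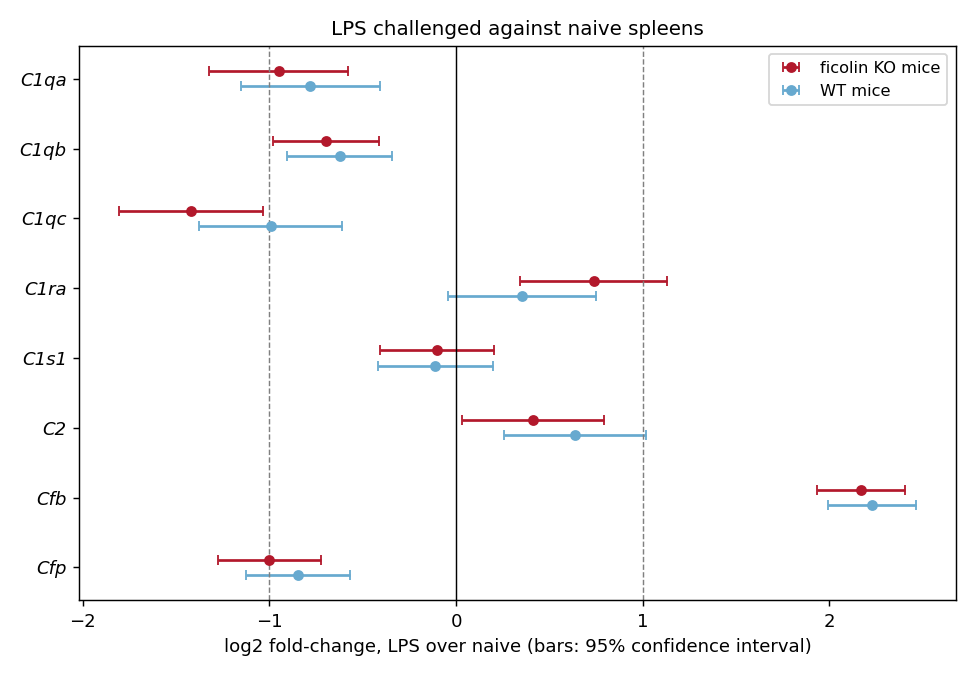
Log2 fold-change of each gene between LPS challenged and naive mice, with points for KO mice and WT mice, bars for the 95% confidence interval and dashed lines at a fold-change of 2 in either direction. Cfb stood at 2.17 in KO mice and 2.23 in WT mice, and the intervals of C1qa, C1qb, C1qc and Cfp lay below 0 in both genotypes.

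No difference between KO and WT mice was detected for any of the 8 genes, in either state. DEGs between genotypes had a fold-change over 1.5 and p under 0.05. In LPS challenged mice none of the 8 genes met this, beside 0.46% of all genes, and none of the 8 had arrays that did not overlap between genotypes, beside 10.9% of all genes. In naive mice none of the 8 met the criteria either, beside 0.185% of all genes, and none was separate, beside 6.28% of all genes. By limma, 0 of the 8 had an unadjusted p under 0.05 in either state, while 5.18% of all genes did so in LPS challenged mice and 2.85% in naive mice.

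The log2 differences between KO and WT mice ran from -0.21 for C2 to 0.19 for C1ra after LPS challenge, where the smallest limma adjusted p was 0.946. C1qc averaged 8.26 ± 0.11 in LPS challenged KO mice and 8.47 ± 0.12 in LPS challenged WT mice (SD, n = 3 each), a difference of -0.21. Cfb averaged 10.27 ± 0.08 in LPS challenged KO mice and 10.37 ± 0.09 in LPS challenged WT mice, a difference of -0.10. The other differences in LPS challenged mice were -0.01 for C1qa, 0.03 for C1qb and -0.02 for Cfp, and C1s1 was level. In naive mice the differences ran from -0.19 for C1ra to 0.22 for C1qc, with limma adjusted p = 0.999 for every gene. C1qc averaged 9.68 ± 0.23 in naive KO mice and 9.47 ± 0.42 in naive WT mice, so that its small differences had opposite signs in both states. Cfp averaged 10.41 ± 0.10 in naive KO mice and 10.27 ± 0.25 in naive WT mice. The 95% confidence intervals of the fold-changes stayed within 0.662 to 1.5 after LPS challenge and within 0.665 to 1.52 in naive mice, which leaves room for differences below that size.

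The LPS responses of the genotypes did not differ detectably either. Their differences ran from -0.43 for C1qc to 0.38 for C1ra on the log2 scale, with a limma adjusted p = 0.998 for all 8 genes and 0 genes at an unadjusted p under 0.05. Over all genes, 0.00902% differed at an adjusted p under 0.05 and 3.53% at an unadjusted p. The order of the group means was the same for C1qa, C1qb, C1qc and Cfp with regard to treatment, with both naive groups above both LPS challenged groups. Of the groups that shared a treatment, the arrays overlapped between genotypes for each of these genes.

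Digestive enzyme genes of the exocrine pancreas differed between LPS challenged KO and WT mice, at the criteria for genotypes, with 10 of 10 measured members lower in KO mice, beside 0.46% of all genes that were DEGs there. None of the 10 had an adjusted p under 0.05 in limma in that comparison, and none did for the difference between the LPS responses. Their mean log2 intensity ranged from 4.23 to 8.63 in LPS challenged KO mice, from 9.22 to 11.2 in LPS challenged WT mice, from 9.29 to 10.9 in naive KO mice and from 8.54 to 10.3 in naive WT mice. In the LPS comparisons, all 10 were lower DEGs in KO mice, beside 4.41% of all genes. In WT mice 1 was a higher DEG, beside 4.05% of all genes. Their part in the complement values was not tested.

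**Figure D4:**
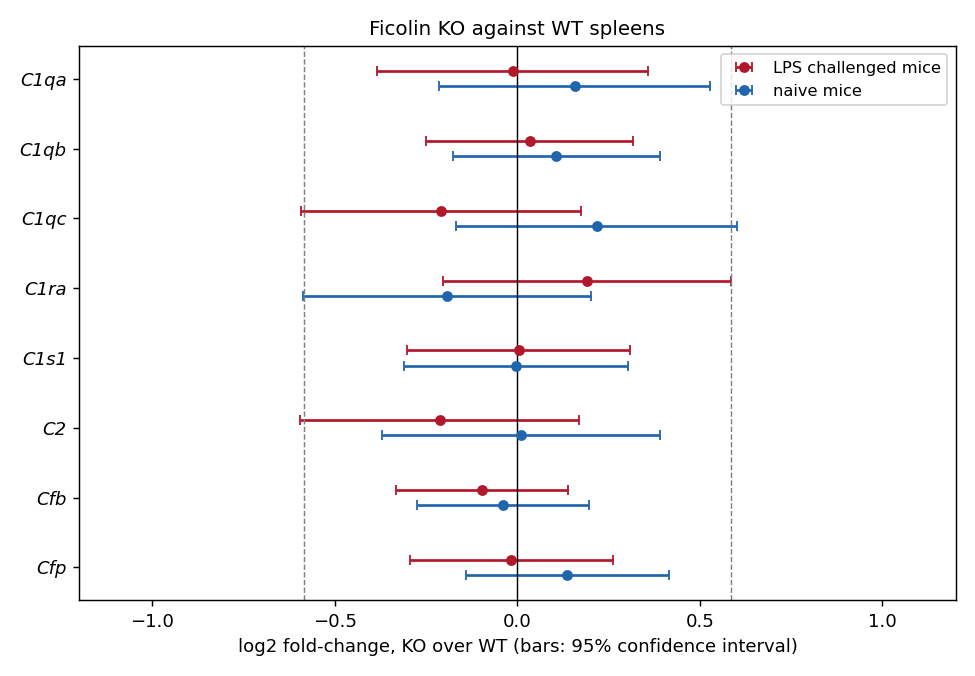
Log2 fold-change of each gene between KO and WT mice, with points for LPS challenged and naive mice, bars for the 95% confidence interval and dashed lines at a fold-change of 1.5 in either direction. All 16 intervals include 0.

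The rest of the complement system was read from lists of its pathways, and 42 genes of these lists were analysed here. In KO mice 4 of the 42 were lower DEGs after LPS challenge and none was a higher one. In WT mice 4 were lower and 1 was higher. At an adjusted p under 0.05 in limma, 2 were higher and 8 lower in KO mice, and 1 was higher and 9 were lower in WT mice. Over all genes these shares were 12.9% higher and 14.9% lower in KO mice, and 13.4% higher and 16.7% lower in WT mice. The 4 lower DEGs, C6, Cd55, Cr2 and Itgax, were lower in both genotypes. The median log2 fold-change of the 42 genes was -0.045 in KO mice and -0.115 in WT mice. Of all genes, 4.41% were lower DEGs in KO mice and 4.94% in WT mice, and 4.22% were higher DEGs in KO mice and 4.05% in WT mice.

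Closest to the initiators are their paralogs C1rb, C1s2, C1rl, C4a and C4b, of which none was a DEG in either genotype. C4b, the main mouse C4, which C1s cleaves, had log2 intensities of 8.86, 8.70 and 8.38 in LPS challenged KO mice, against 8.13, 8.36 and 8.31 in naive KO mice. It rose there by a log2 fold-change of 0.38 (limma adjusted p = 0.0447), and the value in WT mice was 0.14 (limma adjusted p = 0.488). These responses differed by 0.24 (limma adjusted p = 0.998), so a difference in response was not shown. C4b averaged 8.65 in LPS challenged KO mice and 8.69 in LPS challenged WT mice. In the naive state it averaged 8.27 in KO mice and 8.55 in WT mice, where the arrays did not overlap (limma adjusted p = 0.999). C1s2 was at -0.50 in KO mice (limma adjusted p = 0.0173) and at -0.12 in WT mice, but it lay below the median on every array. Its responses differed by -0.38 (limma adjusted p = 0.998), so a difference was not shown for C1s2 either. C1rb, next to C1s1 on chromosome 6, had 0.32 in KO mice (limma adjusted p = 0.186) and 0.11 in WT mice. C1rl had 0.10 in KO mice and 0.09 in WT mice, and C4a had 0.25 in KO mice and -0.38 in WT mice. C4a and C4b are close copies of each other, as are C1ra and C1rb, and C1s1 and C1s2, so that probes could bind RNA of either copy and these values are uncertain.

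Of the lectin pathway, 7 genes were measured and none was a DEG after LPS challenge. Apart from Fcna, these genes had group means of 2.68 to 3.59, below all array medians of 4.17 to 4.27. A shift of theirs would be hard to see. Fcna itself was lower after LPS challenge of WT mice, at -0.93 on the log2 scale (limma adjusted p = 0.00163). By qPCR of WT spleens at the same dose and time, the paper reported a smaller decrease of ficolin-A that was not statistically significant. Fcna was also the only one of the 42 genes that met the criteria between genotypes, in LPS challenged and in naive mice.

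C6, which joins the membrane pore at the end of the cascade, was the 1 DEG among 7 terminal components. It averaged 5.57 ± 0.26 in LPS challenged KO mice and 7.41 ± 0.07 in naive KO mice, and 5.70 ± 0.30 in LPS challenged WT mice and 7.27 ± 0.30 in naive WT mice (SD, n = 3 each). The log2 fold-changes were -1.83 in KO mice and -1.57 in WT mice, with limma adjusted p = 1.37e-06 in KO mice and 6.30e-06 in WT mice. The other terminal components had group means of 2.97 to 3.66, below all array medians, so a shift of theirs would be hard to see.

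Among 15 regulators, which hold complement in check on host cells, Cd55 was the 1 DEG. Cd55 encodes decay-accelerating factor, which takes C3-splitting enzymes apart. It averaged 5.69 ± 0.55 in LPS challenged KO mice and 8.47 ± 0.14 in naive KO mice, and 5.66 ± 0.23 in LPS challenged WT mice and 8.52 ± 0.33 in naive WT mice. The log2 fold-change was -2.78 in KO mice (limma adjusted p = 2.63e-07) and -2.85 in WT mice (limma adjusted p = 1.88e-07). Some of the other regulators also had group means below all array medians.

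Complement receptors held the remaining ones. Cr2, a receptor for C3 fragments on B cells and follicular dendritic cells, had log2 fold-changes of -2.03 in KO mice and -2.33 in WT mice. Itgax, the alpha chain of complement receptor 4 and a marker of dendritic cells, had -1.82 in KO mice and -1.92 in WT mice. C5ar1, the receptor for the C5a fragment on myeloid cells, went up, while C5ar2 of the same list went down. C5ar2 had log2 fold-changes of -0.83 in KO mice (limma adjusted p = 0.00171) and -0.89 in WT mice (limma adjusted p = 9.68e-04), short of the fold criterion. C5ar1 averaged 5.21 ± 0.08 in LPS challenged KO mice and 4.25 ± 0.10 in naive KO mice, and 5.39 ± 0.14 in LPS challenged WT mice and 4.32 ± 0.19 in naive WT mice. Its log2 fold-change was 0.96 in KO mice and 1.08 in WT mice, so that it passed the fold criterion in WT mice alone, and it was picked for mention after its values were seen. On naive arrays C5ar1 was dim, at 4.14 to 4.53 beside array medians of 4.17 to 4.27, so the size of its change is uncertain. The responses of C5ar1 differed by -0.12 (95% confidence interval -0.49 to 0.26). Falls of Cr2 stood beside falls of 3 of 5 B cell markers in each genotype. Of the other B cell markers, Cd22 averaged 9.31 in LPS challenged and 9.54 in naive KO mice, and 9.08 and 9.53 in WT mice. Pax5 averaged 8.47 in LPS challenged and 8.43 in naive KO mice, and 8.40 and 8.35 in WT mice. T cell markers were lower as well, so falls were not particular to B cell markers. The part of either cell type in the fall of Cr2 was not tested.

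**Figure D5:**
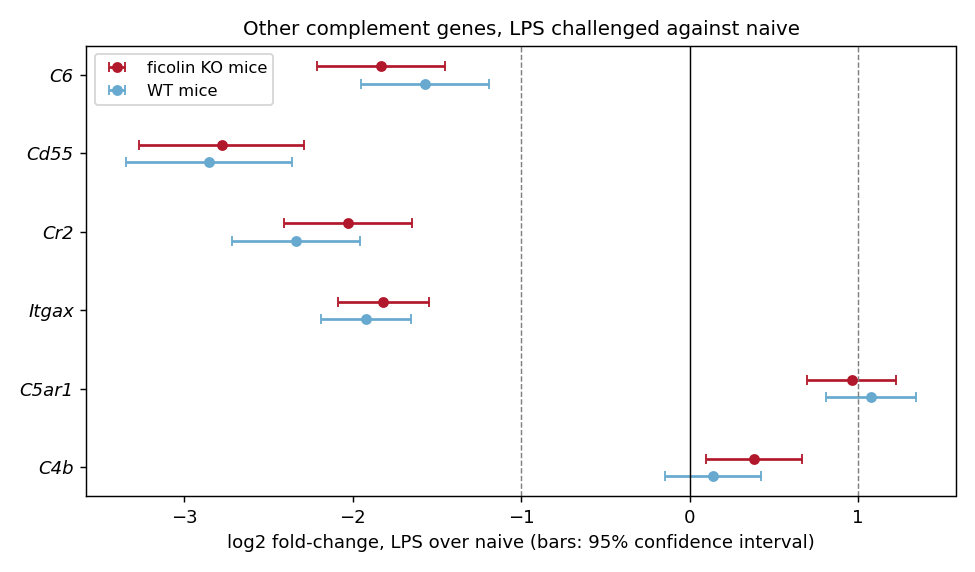
Log2 fold-change of 6 further complement genes between LPS challenged and naive mice, with points for KO mice and WT mice, bars for the 95% confidence interval and dashed lines at a fold-change of 2 in either direction. C6, Cd55, Cr2 and Itgax lay below -1 in both genotypes, C5ar1 was near 1, and C4b was at 0.38 in KO mice and 0.14 in WT mice.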

How the data were processed

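Spleen RNA of 12 mice was measured on Affymetrix Mouse Gene 2.0 ST arrays. Quantile normalization and summary of probes by RMA were done by the authors, who deposited log2 intensities with 2 decimals that ran from 1.38 to 13.86 and had array medians of 4.17 to 4.27. The scanned arrays were not used here, and the genome build of the array annotation was not given in the sources used here. Of 41345 probe sets, 1820 had several gene symbols and 16004 had none, and these were left out. Where a gene had several probe sets the brightest stood for it, and no gene was dropped for being dim.

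A single limma model (limma 3.58.1, R 4.3.3) covered all 12 arrays, with 8 residual degrees of freedom and a prior of 6.7. Benjamini-Hochberg adjustment ran over 22180 genes. The median SE of a log2 fold-change was 0.14, and the number of arrays limits the precision. The p-values measure the spread between these mice, 1 array each, and the smallest p of an exact permutation test with 3 mice a group is 0.1. The fit was tested on simulated data. The criteria for DEGs were the study's own, with adjusted p-values in place of its q-values.

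Members and gene lists were chosen with earlier results of these data known. Genes named were all members, their paralogs, other complement genes that were DEGs in both LPS comparisons, Fcna and up to 4 markers of a list. Also named were the 3 genes most like a member that was a DEG in both LPS comparisons. Genes that complete a count were named too, and C5ar2 was named beside C5ar1. Promoter entries existed for 6 of the 9 members, and 3 were shown. The last 22 bases of that of C1qc were left out, because they lay within the annotated gene. Same-numbered mice did not deviate together in most pairs of groups, so numbers were not taken to pair them. Of 12 correlations 2 were over 0.1, both between LPS challenged KO and WT mice (0.156 for replicate 1 and 0.249 for replicate 3). There were 21 other settings for each LPS or genotype comparison.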

Additional observations from a re-analysis of the deposited data

How the results depend on the processing

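Over 21 alternatives, 12 of which left out 1 array each, Cfb, C1qa, C1qb, C1qc and Cfp kept their direction and an adjusted p under 0.05 in limma in the LPS comparisons of ficolin KO (KO) and WT mice. Counts of DEGs moved because C1qa, C1qc and Cfp lay near the 2-fold criterion. With 1 array left out, 2 to 4 of the 8 genes met the criteria in KO mice, against 2 with all arrays, and 1 to 2 in WT mice, against 1. The 4 were reached without replicate 1 of LPS challenged KO mice. Of all 22180 genes, 1821 to 2087 met the criteria in KO mice and 1951 to 2097 in WT mice with 1 array left out. With array weights 2 of the 8 met them in WT mice, where C1qc was at -1.09, beside 1959 of all genes. Genes at an adjusted p under 0.05 numbered 6 to 7 in KO mice and 5 to 6 in WT mice, C2 being the gene that came or went. C1s1 had no value with dim genes left out. Between genotypes and between responses, 0 of the 8 genes passed in every alternative run. A replicate block changed no call of a member, with 2 DEGs in KO mice and 1 in WT mice as before, and C2 at an adjusted p of 0.119 in KO mice by limma. Correlations of deviations of same-numbered mice ran from -0.217 to 0.249 over 12 pairs, 2 of them over 0.1. Over all 22180 genes, DEGs between genotypes numbered 102 (0.46%) in LPS challenged and 41 (0.185%) in naive mice. They reached up to 208 without replicate 3 of LPS challenged KO mice and up to 110 without replicate 1 of naive WT mice. With dim genes left out, only 11091 genes were tested, of which 66 were DEGs in LPS challenged and 20 in naive mice. These counts thus have a smaller base. Signals near or below the array median, as for C1s1 and C1ra, and 3 mice a group limit what could be seen.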
